A study of Homo sapiens with 11 samples.

Results

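RNA-Seq was performed on HCC78 cells, a lung adenocarcinoma line with a SLC34A2-ROS1 fusion that itself carries U2AF1 S34F, after transduction with a doxycycline-inducible lentiviral vector for epitope-tagged wild-type or S34F mutant U2AF1. The comparison described here, between the 2 transduced lines as such, asks which genes differed between them on average, with doxycycline as a covariate. It pools libraries with and without induction, so it does not by itself show a difference in each state. It used 7 of the 11 samples of the series: S34F line with doxycycline (S34F dox+, 2 libraries) and without it (S34F dox-, 1 library), and wild-type line with doxycycline (WT dox+, 2 libraries) and without it (WT dox-, 2 libraries). The 2 libraries of the parental line, which holds no transgene and is labelled as without doxycycline, served as a reference, although the study's supplementary expression data give them as with doxycycline. Of the 20327 protein-coding genes in the table, 12086 averaged at least 1 FPKM (fragments per kilobase of transcript, scaled to the mapped fragments of the library) across the 7 libraries and were tested. Every library shares the endogenous S34F allele and the ROS1 fusion. The lines were made as stable subclones, so an effect of the allele in the vector and a difference between the founding cells of each line cannot be told apart, and nothing states whether replicates were separate cultures, so that p-values measure only the spread between these libraries.

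U2AF1 is the small subunit of the U2 auxiliary factor, which recognizes the AG at the 3' end of introns next to the polypyrimidine tract bound by its large subunit, U2AF2. S34F lies in a zinc finger of the protein and changes which 3' splice sites it prefers. In a tetracycline-inducible vector the transgene is meant to be silent until doxycycline is added, so a gene that sets the lines apart without the drug differs between the cultures before induction.

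U2AF1, the targeted gene, was measured at 164.44 and 222.76 FPKM in S34F dox+, 115.06 in S34F dox-, 277.6 and 299.05 in WT dox+, 111.5 and 109.92 in WT dox-, and 114.94 and 102.76 in parental cells. The 3 libraries of the 2 lines without doxycycline lay in the range of the parental libraries or within 1 FPKM of it, and the induced wild-type libraries were the highest. The labels give S34F as 28 parts of 100 of U2AF1 mRNA in S34F dox-, against 33 in both WT dox- libraries and 32 in both parental ones, so without doxycycline the mutant share in the S34F line was not above that of the other cells. With doxycycline it was 62 and 65 in the S34F line and 12 and 14 in the wild-type line. The line difference of U2AF1, on the log2(FPKM + 1) scale and adjusted for doxycycline, was -0.33 (standard error 0.15, adjusted p = 0.637 from limma). The groups overlapped.

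The 7 libraries of the lines all held the markers of the cell line. All 8 genes listed for lung adenocarcinoma identity, among them ROS1, SLC34A2, EPCAM and the keratins KRT7, KRT8, KRT18 and KRT19, reached 1 FPKM. Their summed level, most of it from keratins, was 8434 to 9825 FPKM in the S34F line, 9377 to 11474 in the wild-type line and 9521 to 9564 in parental cells. ROS1 was at 8.63 to 17.09 FPKM in the 7 libraries of the lines and at 26.09 and 37.81 in parental cells. SLC34A2 was at 40.11 to 70.51 FPKM in the lines and at 114.69 and 165.51 in parental cells. Fibroblast markers summed to 5.54 to 14.4 FPKM in the S34F line and 6.56 to 14.5 in the wild-type line, endothelial markers to 1.38 to 3.59 and 1.19 to 3.39, and neuroendocrine markers to 0.81 to 11.5 and 3.52 to 7.31. Leukocyte markers summed to 26.1 to 46.5 FPKM in the S34F line and 16.8 to 26.1 in the wild-type line, most of it CD68, a lysosomal protein that many cells make, while PTPRC, the pan-leukocyte gene, did not exceed 2.71 FPKM. CD79A, a B cell receptor component on the same list, was at 9.85, 6.68 and 3.31 FPKM in the S34F line and at 1.06 to 4.43 in the wild-type line, overlapping (difference 0.84, adjusted p = 0.333 from limma). The part of these markers in the line differences was not tested. In bulk RNA, fewer cells that express a gene and less RNA per cell cannot be told apart. No read counts were given, but the most frequent ratio among low values put the depth of the S34F dox+ libraries at 0.707 and 0.595 of that of parental replicate 1 and of the other 5 libraries of the lines at 0.871 to 1.23. S34F dox+ replicate 2 also stood apart in the number of genes of all types at 1 FPKM or above, 20896 against 13661 to 17716 in the other 8 libraries.

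Between the lines, 9 protein-coding genes were higher in the S34F line (0.0745% of those tested) and 5 were lower (0.0414%) at an adjusted p under 0.05, by limma-trend on log2(FPKM + 1) with Benjamini-Hochberg adjustment over all 12086 genes. The 9 were CD96, HIST1H3C, GALR2, DSP, MYEOV, VIM, TNC, IL32 and PTER, and the 5 were CYP27A1, EFHC2, C7orf65, LY6G5C and NTM. In each of the 14 the 3 S34F libraries lay wholly above or wholly below the 4 wild-type libraries, which held for 5.24% of all tested genes. At an unadjusted p under 0.05, 537 genes were higher (4.44%) and 392 lower (3.24%), so that 57.8% of these were higher. That split depended on the unit, since 35.9% were higher in TPM, 51.9% after median-ratio scaling and 50.1% after quantile normalization. The 14 genes kept their direction under all of these, for which their lack of overlap left little alternative.

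Several of the genes that lay furthest apart were close to zero in all libraries of a line and expressed in all of the other. CYP27A1, EFHC2 and C7orf65 were expressed in the wild-type line in this way, and CD96 and GALR2 in the S34F line. Their promoters (250 bases before to 50 after the transcription start, from RefSeq, GRCh38.p14, a later build than the hg19 of the expression table) are shown for CYP27A1, EFHC2, GALR2 and CD96, whose RNA was nearly absent in one line and present in the other. They lie at chr2:218781897-218782196 on the plus strand for CYP27A1, chrX:44343623-44343922 on the minus strand for EFHC2, chr17:76074531-76074830 on the plus strand for GALR2 and chr3:111541947-111542246 on the plus strand for CD96. They are written 5' to 3', with CpG dinucleotides, the sites at which mammalian DNA is methylated, in capitals.
CYP27A1: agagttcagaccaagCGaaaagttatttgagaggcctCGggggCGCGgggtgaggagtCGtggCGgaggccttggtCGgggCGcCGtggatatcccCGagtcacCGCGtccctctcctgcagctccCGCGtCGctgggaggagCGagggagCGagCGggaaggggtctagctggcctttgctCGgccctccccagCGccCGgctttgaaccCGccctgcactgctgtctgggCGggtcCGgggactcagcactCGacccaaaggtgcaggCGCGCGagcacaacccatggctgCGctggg
EFHC2: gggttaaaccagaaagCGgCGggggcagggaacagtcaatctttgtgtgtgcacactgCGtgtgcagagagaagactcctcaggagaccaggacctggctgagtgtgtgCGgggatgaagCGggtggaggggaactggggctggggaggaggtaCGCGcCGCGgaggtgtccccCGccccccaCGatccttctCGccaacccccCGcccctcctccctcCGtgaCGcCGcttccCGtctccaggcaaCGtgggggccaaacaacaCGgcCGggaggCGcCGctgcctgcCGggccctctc
GALR2: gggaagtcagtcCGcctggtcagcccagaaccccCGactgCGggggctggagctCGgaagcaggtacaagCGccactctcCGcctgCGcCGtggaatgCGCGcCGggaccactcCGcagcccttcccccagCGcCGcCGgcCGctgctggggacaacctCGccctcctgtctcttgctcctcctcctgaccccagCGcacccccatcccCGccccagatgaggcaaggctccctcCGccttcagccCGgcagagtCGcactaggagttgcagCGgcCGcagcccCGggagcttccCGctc
CD96: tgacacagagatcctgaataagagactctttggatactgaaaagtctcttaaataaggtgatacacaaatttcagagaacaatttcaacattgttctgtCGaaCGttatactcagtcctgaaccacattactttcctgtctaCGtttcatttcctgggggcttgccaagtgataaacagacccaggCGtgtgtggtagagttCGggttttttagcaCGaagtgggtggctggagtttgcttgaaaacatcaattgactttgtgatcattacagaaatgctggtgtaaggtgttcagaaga
The promoters of CYP27A1, EFHC2 and GALR2 hold 29, 23 and 26 CpG, and that of CD96 holds 6. Over the 27305 genes in the promoter table the median was 14, and 37.5% of promoters had no more CpG than that of CD96. The letters GGGCGG, which include a CpG, were found on either strand in the promoters of CYP27A1, EFHC2 and GALR2 and not in that of CD96, and in 44.6% of all promoters. Neither TATAAA nor CACCTG occurred in any of the 4 windows on either strand, against 12.0% and 20.6% of all promoters. DNA methylation was not measured in these samples.

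CYP27A1 (ENSG00000135929.4), the mitochondrial sterol 27-hydroxylase that makes 27-hydroxycholesterol and takes part in bile acid synthesis, had the largest difference on the log2(FPKM + 1) scale, although with a pseudocount of 0.1 that of EFHC2 was larger (-6.13 against -5.29). Its FPKM was 0.86 and 0.74 in S34F dox+ and 0.21 in S34F dox-, against 27.95 and 36.6 in WT dox+ and 13.75 and 13.97 in WT dox-. Every wild-type library was above 13 FPKM and no S34F library reached 1. The line difference was -3.97 (standard error 0.17, adjusted p = 8.73e-06 from limma), on a scale that understates the change of genes near zero. In parental cells it was at 0.45 and 0.25 FPKM, in the range of the S34F line. Of the other tested mitochondrial P450 enzymes and their electron donors, FDX1, the ferredoxin that serves CYP27A1, was between 9.48 and 13.11 FPKM in all 7 libraries, with a line difference of -0.16 (adjusted p = 0.858 from limma). CYP24A1, which inactivates vitamin D, was at 1.1, 1.26 and 0.95 FPKM in the S34F line and at 1.9 to 3.92 in the wild-type line without overlap, and its difference of -0.90 did not pass (adjusted p = 0.306 from limma).

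EFHC2 (ENSG00000183690.12), a protein with an EF-hand domain, showed the same on and off pattern. It was listed at 0 and 0.43 FPKM in S34F dox+ and 0.05 in S34F dox-, against 12.57 and 10.12 in WT dox+ and 18.5 and 16.71 in WT dox-. The line difference was -3.67 (standard error 0.22, adjusted p = 9.13e-05 from limma). In parental cells it was at 0.07 and 0.1 FPKM, which again is the level of the S34F line. C7orf65, an open reading frame of unknown function, was at 0.31, 0.2 and 0 FPKM in the S34F line, 4.22, 3.56, 4.48 and 6.31 in the wild-type line, and 0.37 and 0.16 in parental cells, a line difference of -2.24 (standard error 0.23, adjusted p = 0.00455 from limma).

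The 2 remaining genes that were lower in the S34F line were expressed in both lines. NTM, or neurotrimin, a GPI-anchored cell adhesion molecule of the IgLON family, was at 6.42, 7.69 and 5.64 FPKM in the S34F line and 13.99, 20.62, 25.7 and 21.03 in the wild-type line, with 10.97 and 9.14 in parental cells (difference -1.45, standard error 0.19, adjusted p = 0.0222 from limma). Parental cells thus lay between the lines. OPCML, LSAMP and NEGR1, the IgLON genes examined beside it, stayed under 1 FPKM in all libraries. LY6G5C, a member of the LY6 family encoded in the major histocompatibility complex, was at 2.6, 5.87 and 3.55 FPKM in the S34F line and at 11.28 to 16.78 in the wild-type line (difference -1.57, standard error 0.22, adjusted p = 0.0269 from limma), and at 5.28 and 6.68 in parental cells. LY6G5B, its next tested neighbor in the same cluster, was at 1.27 to 4.85 FPKM in the S34F line and 3.27 to 5.56 in the wild-type line, overlapping, with a difference of -0.48 (adjusted p = 0.634 from limma). HMSD, a serpin-domain gene that encodes a minor histocompatibility antigen, missed the threshold with a difference of -1.12 (adjusted p = 0.0522 from limma). Its levels were 5.52, 4.68 and 9.52 FPKM in the S34F line and 14.04 to 19.62 in the wild-type line.

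**Figure D1:**
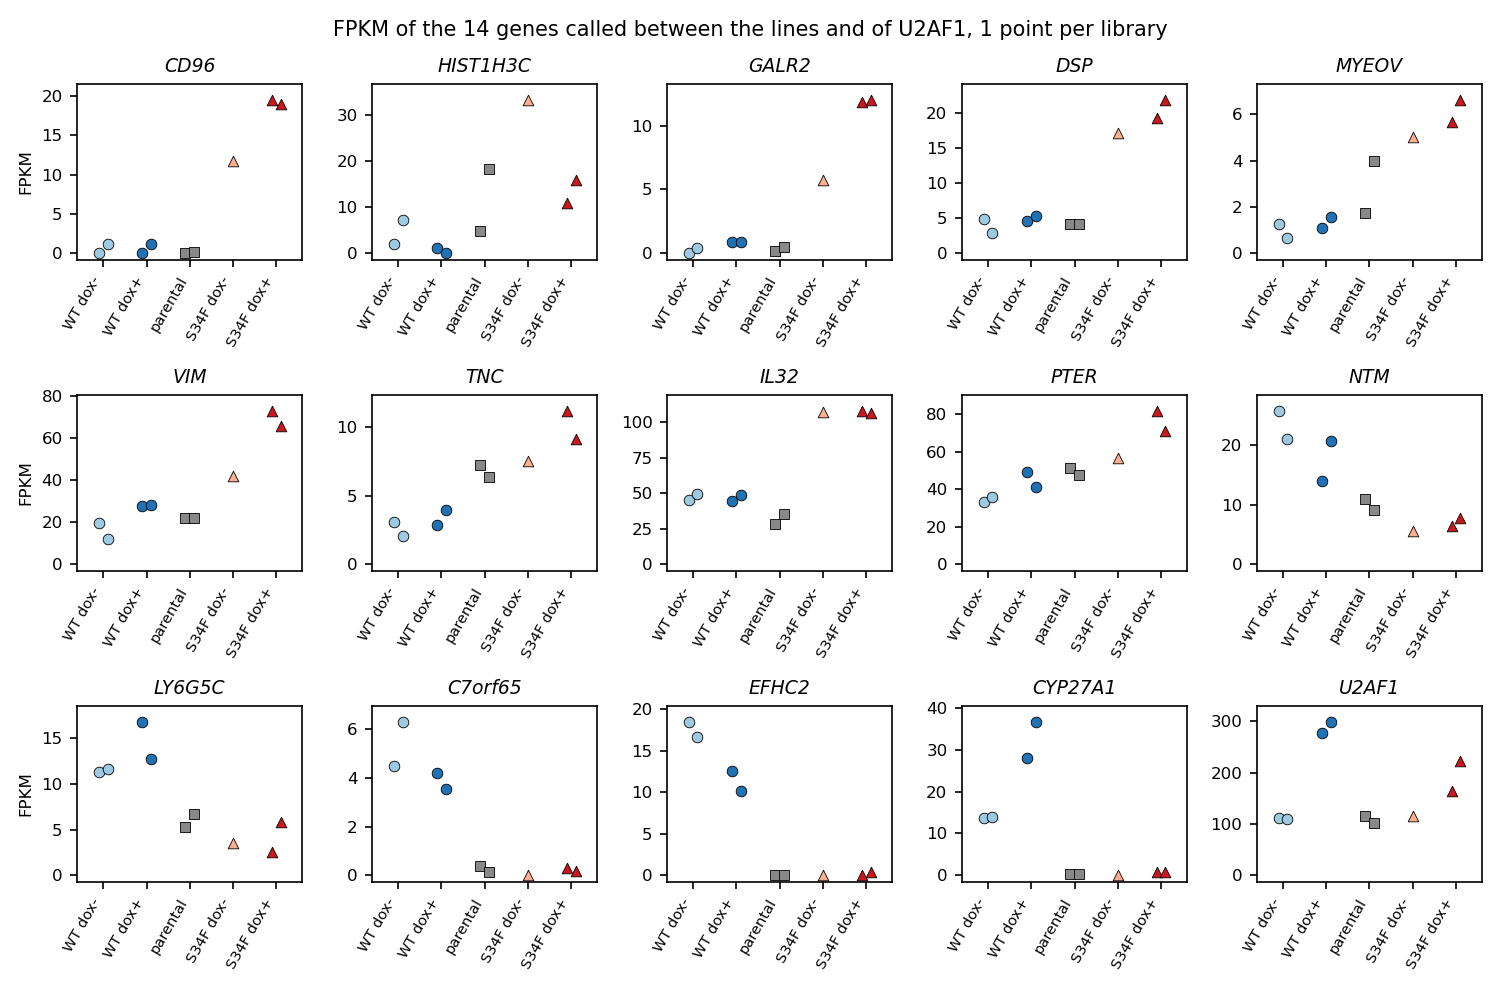
FPKM (vertical axis, linear, a scale of its own in each panel) of the 14 genes called between the lines and of U2AF1, with 1 point per library in WT dox-, WT dox+, parental, S34F dox- and S34F dox+. CYP27A1 is at 13.75 to 36.6 FPKM in the wild-type line and under 1 in parental and S34F cells, whereas CD96 is at 11.73 to 19.46 in the S34F line and at 1.17 or less in all others.

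Of the genes that were higher in the S34F line, CD96 (ENSG00000153283.8) encodes an immunoglobulin-family receptor best known from T and NK cells, where it binds the poliovirus receptor PVR. It was measured at 19.46 and 18.93 FPKM in S34F dox+ and 11.73 in S34F dox-, against 0.07 and 1.17 in WT dox+, 0.04 and 1.17 in WT dox- and 0.02 and 0.12 in parental cells. All libraries outside the S34F line were at 1.17 FPKM or below. The line difference was 3.47 (standard error 0.32, adjusted p = 0.00161 from limma). The T cell gene CD3E did not exceed 1.67 FPKM in any of the 7 libraries and NKG7, a gene of cytotoxic lymphocytes, did not exceed 0.46, while the B cell gene CD79A reached 9.85. TIGIT and CD226, which share the ligand PVR with CD96, were at 1.48 FPKM or below throughout, and PVR itself was at 41.16, 46.68 and 48.6 FPKM in the S34F line and 39.75 to 49.85 in the wild-type line (difference 0.07, adjusted p = 0.929 from limma).

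GALR2 (ENSG00000182687.3), a G protein-coupled receptor for the neuropeptide galanin, was at 11.83 and 12.01 FPKM in S34F dox+ and 5.75 in S34F dox-, with 0.86 and 0.92 in WT dox+, 0 and 0.46 in WT dox- and 0.22 and 0.51 in parental cells. Its difference was 2.66 (standard error 0.20, adjusted p = 0.000472 from limma). The receptor was the only tested member of the galanin list. Its ligand gene GAL did not exceed 0.23 FPKM in the 7 libraries, GALR1 0.49 and GALR3 0.08. HIST1H3C, a replication-dependent histone H3 gene, was at 10.99, 15.94 and 33.35 FPKM in the S34F line and at 1.24, 0, 2.08 and 7.23 in the wild-type line (difference 3.06, standard error 0.37, adjusted p = 0.0118 from limma). It was also at 4.94 and 18.25 FPKM in parental cells. Histone H3 genes are nearly identical in sequence, so how reads were divided among them is uncertain, and its 3 tested histone neighbors HIST1H3B, HIST1H2AB and HIST1H1C had differences of -0.05, -0.01 and -0.08.

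DSP, or desmoplakin, which ties keratin filaments to desmosomes, was at 19.29 and 21.9 FPKM in S34F dox+ and 17.2 in S34F dox-, against 4.63, 5.4, 4.93 and 2.98 in the wild-type line and 4.23 and 4.13 in parental cells. The S34F line was thus apart from both other lines. The difference was 1.87 (standard error 0.16, adjusted p = 0.00123 from limma). Among the other desmosome genes, the cadherin DSC2 was at 30.97, 28.39 and 24.66 FPKM in the S34F line and 18.74 to 22 in the wild-type line, without overlap, but its difference of 0.41 did not pass (adjusted p = 0.306 from limma). DSG2 did not overlap either, at 207.68 to 262.33 FPKM against 180.92 to 198.09, with a difference of 0.20 (adjusted p = 0.667 from limma). JUP, PKP2 and PKP3 overlapped and had differences of 0.12, 0.09 and 0.02. The plakin genes PPL, EVPL and PLEC, relatives of DSP, had differences of -0.24, -0.07 and 0.03 and did not pass either.

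VIM encodes vimentin, the intermediate filament of mesenchymal cells, and TNC encodes tenascin C, a matrix glycoprotein. VIM was at 73.16 and 66.17 FPKM in S34F dox+, 42.13 in S34F dox-, 27.76 and 28.12 in WT dox+, 19.86 and 12.1 in WT dox-, and 21.97 and 22.25 in parental cells (difference 1.33, standard error 0.15, adjusted p = 0.00814 from limma). It also differed with doxycycline over both lines, by 0.77 (adjusted p = 0.0215 from limma), as did 7.54% of tested genes. Among the 14 called genes, CYP27A1 (0.92, adjusted p = 0.0203), PTER (0.39, adjusted p = 0.0498) and HIST1H3C (-1.56, adjusted p = 0.0362) did so as well, all from limma. TNC was at 11.2, 9.14 and 7.55 FPKM in the S34F line, 2.9, 3.96, 3.09 and 2.08 in the wild-type line, and 7.22 and 6.34 in parental cells (difference 1.31, standard error 0.18, adjusted p = 0.024 from limma). Here parental cells were close to the S34F line and the wild-type line was below both.

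IL32, a proinflammatory cytokine, was measured at 107.82, 106.34 and 106.77 FPKM in the S34F line and at 44.29, 48.64, 45.33 and 49.45 in the wild-type line. The levels barely varied within either line, and the standard error was the smallest of the 14 genes (difference 1.18, standard error 0.086, adjusted p = 0.00039 from limma). Parental cells were lower than both, at 28.65 and 35.3 FPKM. MYEOV, a gene named for its overexpression in myeloma, was at 5.68, 6.63 and 5.01 FPKM in the S34F line and at 1.08, 1.56, 1.25 and 0.68 in the wild-type line (difference 1.63, standard error 0.20, adjusted p = 0.0127 from limma). Its parental levels, 1.75 and 3.98 FPKM, lay between the lines. PTER, a phosphotriesterase-related enzyme, had the smallest difference called, 0.73 (standard error 0.10, adjusted p = 0.032 from limma), with 81.76, 70.91 and 56.78 FPKM in the S34F line, 49.18, 41.2, 33.19 and 36.15 in the wild-type line and 51.39 and 47.53 in parental cells. Just outside the threshold were the drug exporter ABCC3, with a difference of -1.03, and the lipolysis inhibitor G0S2, with 0.55, both at an adjusted p of 0.0512 from limma.

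Leaving out single libraries separated the 14 genes into those that did and did not depend on one. CYP27A1, EFHC2, CD96, GALR2, DSP and IL32 passed in all 7 such fits. C7orf65 failed without the S34F dox- library (adjusted p = 0.0844), HIST1H3C without it (0.118) or S34F dox+ replicate 2 (0.0723), and VIM without it (0.144), WT dox+ replicate 1 (0.0529) or WT dox+ replicate 2 (0.0507). MYEOV passed in 3 of 7 fits, and its adjusted p was 0.172 without S34F dox-, 0.0664 without S34F dox+ replicate 2, 0.0819 without WT dox+ replicate 1 and 0.0507 without WT dox+ replicate 2. NTM passed without S34F dox+ replicate 2 or WT dox+ replicate 1 and failed without any of the other libraries, with adjusted p between 0.0534 and 0.188. LY6G5C passed without either S34F dox+ replicate and failed without any of the others, between 0.0703 and 0.177. TNC passed without WT dox- replicate 1 alone, and otherwise had adjusted p between 0.0723 and 0.196, and PTER passed in none, with adjusted p between 0.0704 and 0.247. The pseudocount mattered as well. With 0.1 in place of 1 and all 7 libraries, CD96 (adjusted p = 0.0563 from limma) and HIST1H3C (0.144) did not pass.

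The line difference without doxycycline rests on 1 S34F and 2 wild-type libraries and shares none with the difference measured with doxycycline. Across all 12086 genes the line difference without doxycycline was weakly related to that with it (Pearson r = 0.189, Spearman rho = 0.124, as a description across genes that share libraries within each axis), and r was 0.126 without the 14 genes. Of the 9299 genes averaging 5 FPKM or more, 44 were at least 2-fold apart and did not overlap without doxycycline, 20 higher and 24 lower in S34F dox-. With doxycycline, 21 of the 44 (47.7%) were apart in the same direction without overlap and 1 was apart in the opposite direction, against 21.9% of the other 9255 genes in the direction of their own difference. The 44 included 10 of the 14 called genes, whose call had used both kinds of library. The 14 genes were called on all of these libraries and did not overlap between the lines, so their 2 differences had to share a sign. Sizes without doxycycline rest on 1 S34F library and do not by themselves show that a gene differs in that state. The sizes are given as description only, from 3.73 with and 3.08 without doxycycline for CD96 to -4.20 and -3.62 for CYP27A1. For IL32 the values were 1.19 and 1.16, for DSP 1.84 and 1.91, for TNC 1.34 and 1.27, and for EFHC2 -3.36 and -4.15.

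**Figure D2:**
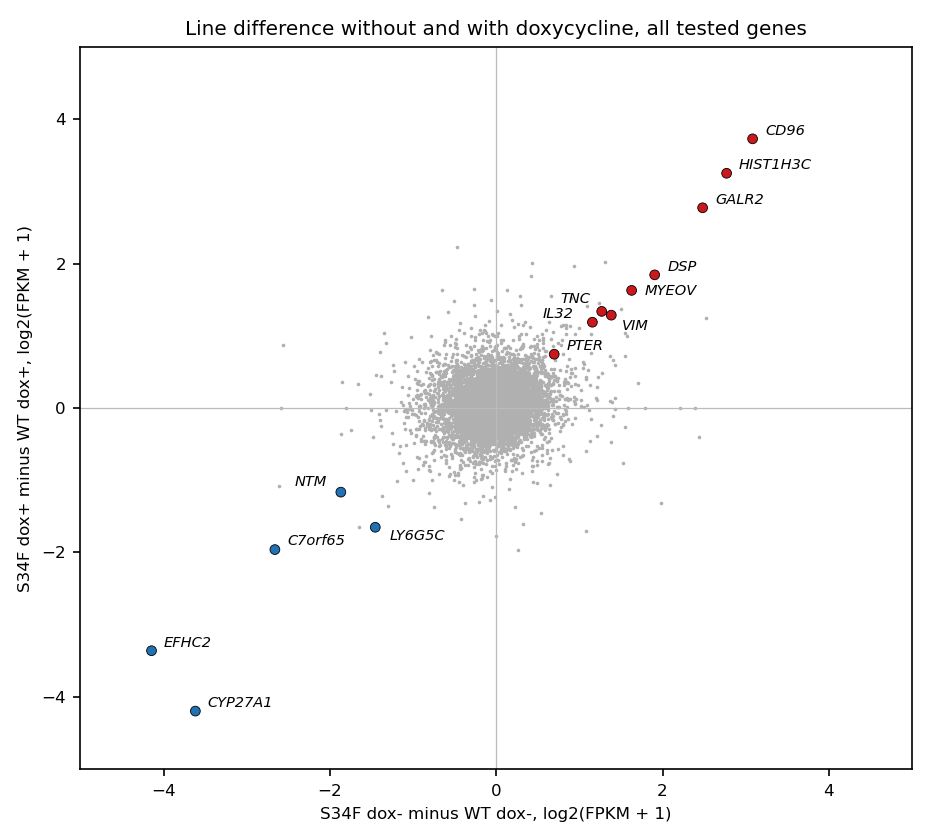
Line difference on the log2(FPKM + 1) scale without doxycycline (horizontal axis, 1 S34F and 2 WT libraries) against that with doxycycline (vertical axis, 2 and 2 libraries), 1 point per tested gene, with the 9 genes called higher in red and the 5 called lower in blue. Most genes lie near 0 on both axes. The 14 called genes lie away from 0 toward the same corners, which their call on these libraries without overlap requires.

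No gene passed for an interaction between line and doxycycline at an adjusted p under 0.05 by limma, and 401 did at an unadjusted p under 0.05 (3.32%). Among the named genes the smallest unadjusted interaction p was that of U2AF1, at 0.0223, for a difference of differences of -0.64, and its adjusted p was 1.00. For the 14 genes the interaction lay between -0.58 in CYP27A1 and 0.78 in EFHC2. The test rests on a single S34F dox- library. Without S34F dox+ replicate 2, 1 gene passed, the histone gene HIST2H4B, chosen here after its values were seen, which was at 6.23 FPKM in S34F dox+ replicate 1 and at 177.78 in the replicate left out.

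Parental cells were compared with each line in a fit of all 9 libraries, which use the same parental libraries in both comparisons. At an adjusted p under 0.05, 38 genes were higher (0.314% of those tested) and 66 lower (0.546%) in the S34F line than in parental cells, 0.860% together, and 82 were higher (0.678%) and 145 lower (1.20%) in the wild-type line, 1.88% together. These counts were not stable, since the 104 genes of the S34F line and the 227 of the wild-type line became 6 and 48 without the S34F dox- library, 21 and 14 without parental replicate 1, 31 and 27 without parental replicate 2, 35 and 45 without WT dox+ replicate 1, 42 and 62 without WT dox+ replicate 2, 54 and 28 without WT dox- replicate 1, and 172 and 75 with parental cells taken as with doxycycline. The order of the lines was reversed in 4 of these 7 settings. CD96 differed from parental cells by 3.83 in the S34F line (adjusted p = 0.00338 from limma) and by 0.36 in the wild-type line (adjusted p = 0.683 from limma). For DSP the values were 1.79 (adjusted p = 0.00422) and -0.08 (adjusted p = 0.882), and for GALR2 2.43 (adjusted p = 0.00405) and -0.23 (adjusted p = 0.708), both from limma. For these genes the S34F line was the one apart.

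CYP27A1, EFHC2 and C7orf65 were apart from parental cells in the wild-type line instead. CYP27A1 differed by 3.58 there (adjusted p = 8.92e-05 from limma) and by -0.39 in the S34F line (adjusted p = 0.532 from limma). EFHC2 was apart by 3.94 (adjusted p = 9.51e-05) and 0.27 (adjusted p = 0.762) in the same order. C7orf65 differed by 2.19 in the wild-type line (adjusted p = 0.00892 from limma) and by -0.05 in the S34F line. TNC was lower than parental in the wild-type line by 1.14 (the value is -1.14, adjusted p = 0.0297 from limma), while its difference in the S34F line was 0.17 (adjusted p = 0.808). IL32 was above parental in both lines, by 1.73 in the S34F line (adjusted p = 0.00056 from limma) and 0.55 in the wild-type line (adjusted p = 0.0458). VIM lay above parental by 0.86 in the S34F line and at -0.46 in the wild-type line, and neither passed (adjusted p = 0.0733 and 0.207 from limma).

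These calls differed in how much they rested on single libraries. When each of the 9 libraries was left out in turn, CYP27A1 and EFHC2 in the wild-type line and IL32 in the S34F line passed in 9 of 9 fits, and CD96, DSP and GALR2 in the S34F line in 8, failing without the S34F dox- library (adjusted p = 0.0553, 0.10 and 0.0702 in that order). C7orf65 in the wild-type line passed in 7 and failed without either parental replicate, with adjusted p up to 0.0761. TNC in the wild-type line passed only without one of the S34F dox+ libraries or WT dox+ replicate 2 and otherwise had adjusted p up to 0.151, and IL32 in the wild-type line passed in 0 of 9, with adjusted p up to 0.238. If the parental cells had been given doxycycline, as the study's supplementary expression data have it, VIM (1.63, adjusted p = 0.00236) and PTER (0.60, adjusted p = 0.0402) would also differ from parental in the S34F line, whereas TNC (-0.81, adjusted p = 0.108) and IL32 (0.54, adjusted p = 0.0726) would not pass in the wild-type line, all from limma. On that reading U2AF1 would differ from parental in both lines, by 0.94 in the S34F line (adjusted p = 0.0296 from limma) and 1.27 in the wild-type line (adjusted p = 0.00886 from limma). The other calls named here held either way.

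**Figure D3:**
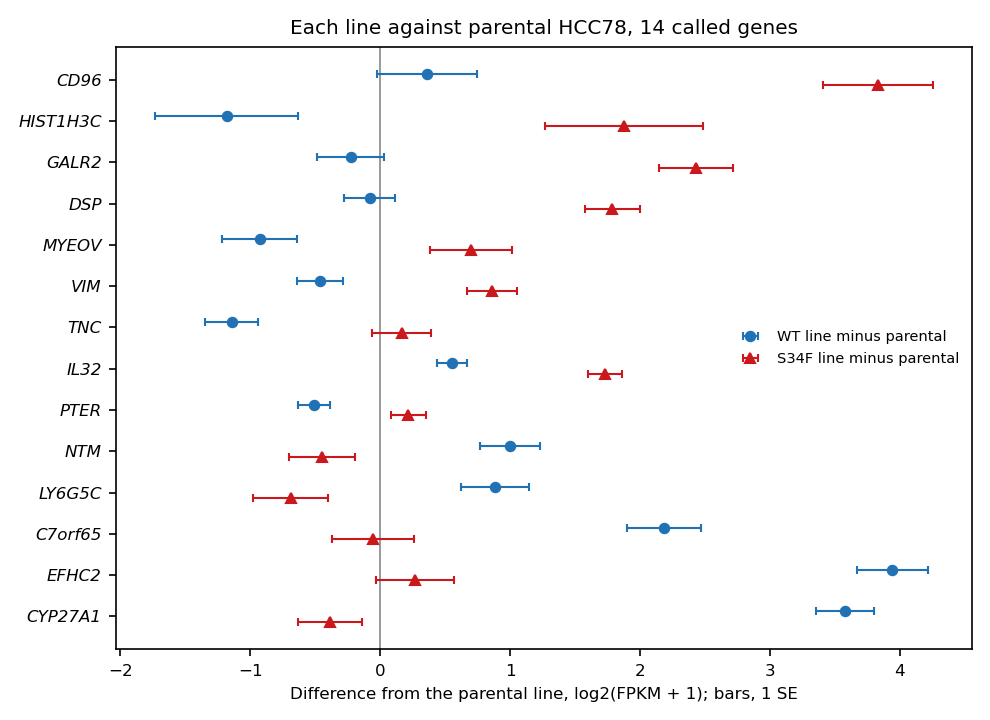
Difference of each line from the parental line on the log2(FPKM + 1) scale (horizontal axis, bars of 1 standard error) for the 14 called genes, with circles for the wild-type line and triangles for the S34F line, from the fit of 9 libraries with parental cells taken as without doxycycline. The triangles of CD96, GALR2, DSP and IL32 and the circles of CYP27A1, EFHC2 and C7orf65 lie far from 0 while the other symbol lies nearer to it.

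The lists of related genes were then counted, beside a median line difference of 0.01 and 5.24% non-overlapping genes over all 12086. Of the 37 tested mesenchymal and matrix genes, VIM and TNC were higher and none was lower, 6 were higher without overlap and none lower without overlap (16.2%), and the median difference was 0.12, between 0.07 and 0.15 when libraries were left out or the scaling or unit was changed. The list median was 0.13 with doxycycline and 0.05 without it. Besides VIM and TNC, the members that did not overlap were LOXL2, MMP14, COL6A2 and the actin-binding protein TAGLN. Their differences were 0.61, 0.60, 0.19 and 0.85, and none passed (adjusted p = 0.205, 0.306, 0.725 and 0.337 from limma). TAGLN was at 49.95 and 35.69 FPKM in S34F dox+, 19.23 in S34F dox- and 14.91 to 18.22 in the wild-type line. Its difference was 1.31 with doxycycline and 0.16 without it. Those of LOXL2, MMP14 and COL6A2 were 0.66, 0.71 and 0.15 with doxycycline and 0.54, 0.43 and 0.26 without it. The transcription factor ZEB1 had a difference of -0.17 and fibronectin, FN1, of 0.27, and neither passed (adjusted p = 0.958 and 0.67 from limma). With and without doxycycline the difference was 0.49 and -0.06 for FN1, and -0.03 and -0.38 for ZEB1. Of the 34 tested epithelial junction and keratin genes DSP was higher and none was lower, 4 were higher without overlap and 0 lower, and the median was 0.04 (-0.02 in TPM). E-cadherin, CDH1, had a difference of 0.07 (adjusted p = 0.94 from limma). Members of both the mesenchymal and the epithelial list were thus among the genes higher in the S34F line.

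Over all tested genes, 6360 of 12086 had a difference above zero. IL32 was the one called gene among 26 tested NF-kB and inflammatory genes, of which 21 had a difference above zero, with a median of 0.14 (0.09 to 0.21 under the same alternatives), 4 higher and 2 lower without overlap. The 33 tested interferon-response genes held no called gene at an adjusted p under 0.05 by limma, 7 were above zero and the median was -0.07 (-0.12 to -0.05). MX2, an interferon-induced GTPase, was the member nearest to the threshold, at 7.59, 7.6 and 5.05 FPKM in the S34F line and 8.35 to 15.98 in the wild-type line (difference -0.84, adjusted p = 0.0694 from limma). Among 23 tested NRF2 target genes, which serve the oxidative stress response, 6 were above zero, 1 was higher and 3 lower without overlap, and the median was -0.11 (-0.17 to -0.05). None was called, and ABCC3 was at 7.16, 10.32 and 8.84 FPKM in the S34F line and 16.09 to 23.03 in the wild-type line. Of 7 tested MHC class II genes none was called by limma and the median was -0.29. That value rested on the S34F dox+ libraries, since it was -0.07 without replicate 2 and -0.48 without replicate 1.

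No member was called among 17 lung lineage genes (median -0.02), 18 MAPK output genes (-0.07), 30 cell cycle genes (-0.04), 15 genes with symbols starting in KRT (0.02), 364 zinc finger genes of the ZNF series (0.04) or 20 genes of 3' splice site recognition (-0.01). The sign of these medians, except that of the cell cycle list, changed under at least 1 of the alternatives. Non-overlapping members made up 17.6% of the lung lineage list, 5.56% of the MAPK list, 3.33% of the cell cycle list, 13.3% of the KRT set, 3.57% of the zinc finger genes and 0% of the splice site list. The KRT set was taken by symbol and also holds genes that are not keratins, such as KRTCAP2 and KRTAP2-3. The water channel AQP5, a lung lineage gene, was at 0.48, 2.46 and 1.38 FPKM in the S34F line and 3.04 to 7.51 in the wild-type line (difference -1.34, adjusted p = 0.312 from limma). KRT17, a stress-inducible keratin, was at 87.14, 41.05 and 16.01 FPKM in the S34F line and 4.08 to 15.59 in the wild-type line (difference 1.55, adjusted p = 0.312 from limma), with wide spread within the S34F line. Of the 22 tested sterol and oxysterol genes CYP27A1 was lower, none was higher, 15 had a difference above zero (6360 of 12086 over all tested genes) and the median was 0.06, which turned to -0.05 without WT dox- replicate 1 and was 0.14 without WT dox- replicate 2. The names TAGLN, LOXL2, MMP14, COL6A2, ZEB1, FN1, CDH1, MX2, ABCC3, AQP5 and KRT17 were chosen after their values were seen.

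**Figure D4:**
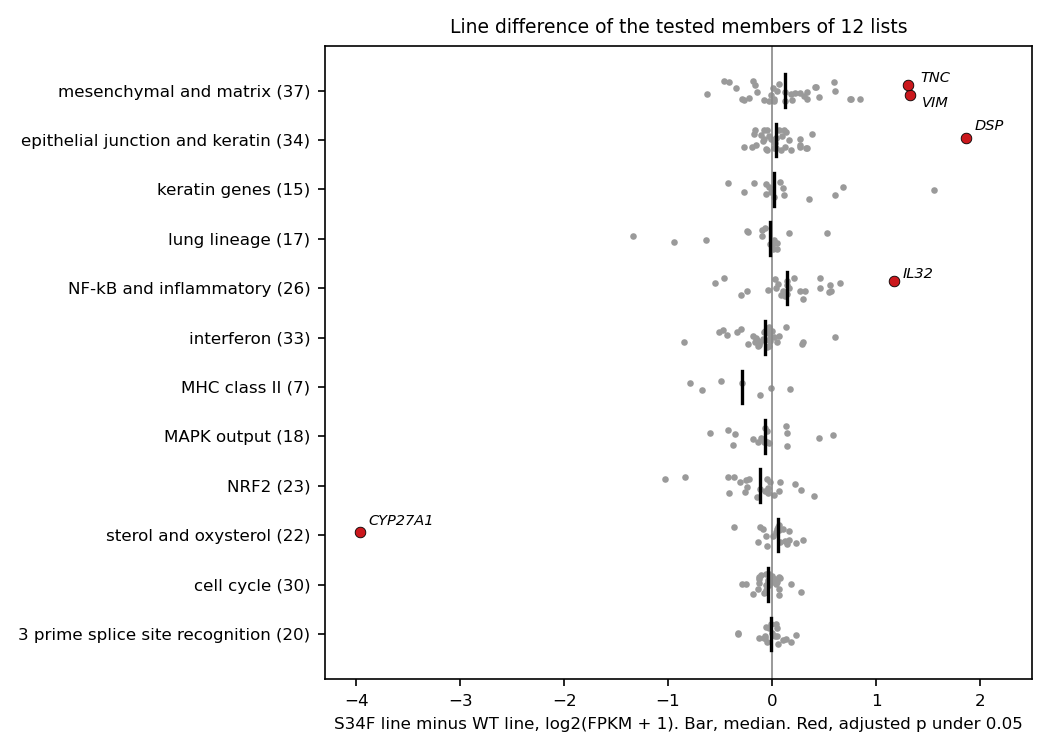
Line difference on the log2(FPKM + 1) scale (horizontal axis) of the tested members of 12 lists, 1 point per gene, with the number tested in parentheses, a bar at each list's median and red points for members with an adjusted p under 0.05. The medians lie between -0.29 for MHC class II and 0.14 for the NF-kB list, and CYP27A1 lies at -3.97, away from the other sterol genes. The row labelled keratin genes holds all tested genes with symbols starting in KRT, some of which are not keratins.

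The 14 called genes lay on at least 9 chromosomes, with DSP, HIST1H3C and LY6G5C on chromosome 6, VIM and PTER on 10 with 3 tested genes between them, and MYEOV and NTM on 11, by the position of the RefSeq gene of the same name, which was found for 13 of the 14 and for 97.7% of tested genes. For each of the 13 the next 2 tested genes on either side were examined. Of these 52 neighbors, with 1 gene counted for both PTER and VIM, none was called by limma. Of the 52, 5 had an unadjusted p under 0.05, 5 (9.62%) did not overlap and 27 had the sign of the called gene beside them. Over all tested genes 7.69% had an unadjusted p under 0.05 and 5.24% did not overlap. The largest neighbor difference was 0.53, in C1QL3 beside PTER (adjusted p = 0.529 from limma). EFHC2 lay between MAOB (-0.04) and FUNDC1 (0.00), and CYP27A1 between TTLL4 (0.19) and NHEJ1 (-0.15).

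Median differences over whole chromosomes were small. The median line difference per chromosome, given without a test, ranged from -0.11 on chromosome 15 (389 genes) to 0.06 on chromosome 8 (414 genes). Chromosome 15 had a median of -0.13 with and -0.08 without doxycycline, and chromosome 2 (781 genes) of -0.08 with and -0.10 without. On chromosome 15, 6.94% of genes were lower without overlap and 0.514% were higher, and on chromosome 2 the shares were 5.89% and 0.896%, against 2.23% lower and 3.00% higher over all tested genes. When single libraries were left out or median-ratio scaling was used, the median stayed between -0.13 and -0.10 on chromosome 15 and between -0.11 and -0.08 on chromosome 2. Against parental cells the S34F line had medians of -0.04 and -0.08 on chromosomes 15 and 2, and the wild-type line 0.05 and 0.01. DNA copy number was not measured in these samples.

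Among 10675 runs of 50 neighboring tested genes, 95% of the medians lay between -0.12 and 0.12. The highest run, on chromosome 10 from PTER to ZNF25, included VIM and had a median of 0.18, the same with doxycycline and without it to 2 decimals (0.19 and 0.19), and between 0.16 and 0.20 under the same alternatives. In it 10 of the 50 genes were higher in the S34F line without overlap, PTER and VIM among them, and none was lower. Over all tested genes 3.00% were higher and 2.23% lower without overlap. The run was picked as the highest on these same libraries, so its counts and medians are description only. Against parental cells its median was -0.01 in the S34F line and -0.25 in the wild-type line. The lowest run lay on chromosome 15, from FBN1 to GCNT3, with a median of -0.17.

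**Figure D5:**
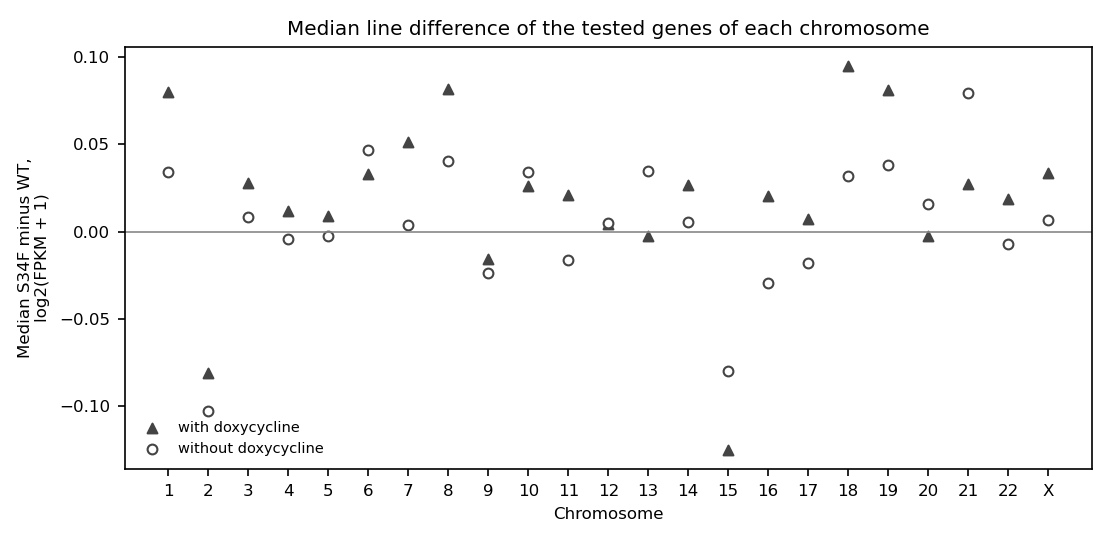
Median line difference of the tested genes of each chromosome on the log2(FPKM + 1) scale (vertical axis), with triangles for the libraries with doxycycline and open circles for those without. Chromosomes 2 and 15 lie near -0.08 or lower with and without doxycycline, and the other chromosomes lie between -0.03 and 0.09.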

How the data were processed

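Total RNA libraries (SMARTer Stranded kit) were sequenced in paired-end reads, which the authors trimmed, aligned to hg19 with STAR 2.3.0 and quantified with RSEM 1.2.29, per the labels. The deposited values are FPKM and TPM per gene, with 2 decimals and no counts, so DESeq2 and edgeR could not be applied, and precision is known only from the spread between libraries. Whether counting used strand is not given in the sources used here. The 5 deposited tables of splicing comparisons hold the authors' own contrasts and were not used, nor were the 2 iCLIP samples.

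The members, lists and tests were chosen with earlier results of these data known. Protein-coding genes that averaged 1 FPKM or more across the 7 libraries were fitted as log2(FPKM + 1) with limma 3.58.1 (limma-trend, R 4.3.3), with line and doxycycline as terms. A 4-group fit gave the interaction and the differences with and without doxycycline, and a fit of 9 libraries the comparisons with parental cells. Tests were two-sided with Benjamini-Hochberg adjustment over all 12086 genes, and the threshold was 0.05. The fit was tested on simulated data. Named genes were the 6 genes given for the comparison (GALR2, IL32, VIM, TNC, CYP27A1, EFHC2), U2AF1, up to 12 called genes in each direction that averaged 5 FPKM or more without overlap, called list members, and enough others to make 6 in each direction. MYEOV and C7orf65 were called but fell under that size and are named so that all 14 are. Family members and neighbors were named after the 14 were known. Gene order came from RefSeq (GRCh38.p14) by name. Lists, chromosomes and runs are described by counts and medians without tests. Some items are not reported here.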

Additional observations from a re-analysis of the deposited data

How the results depend on the processing

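The 14 called genes kept their direction in all 319 values recomputed for them under 23 alternatives, and 91 of these no longer passed. The kept direction adds little, since these genes did not overlap between the lines and the alternatives reuse the same libraries. U2AF1, which was not called, changed sign in the contrast of the lines without doxycycline (0.055, chosen after seeing the data). Against 9 genes higher and 5 lower, array weights gave 15 and 13, the fit of 9 libraries 14 higher, all gene types 5 and 2, no doxycycline covariate 5 higher, the doxycycline libraries alone 5 and 2, TPM 8 lower and no minimum FPKM 3 lower. Alternatives chosen after seeing the data gave 4 and 2 (contrast with doxycycline), 0 and 2 (contrast without, where 196 genes were higher at an unadjusted p under 0.05) and 3 lower (no trend). The cause was not tested, except that the contrasts use fewer libraries. Leaving out each library gave 4 to 9 higher and 2 to 6 lower, with the fewest without the S34F dox- library, and 0 to 1 genes for the interaction. Against parental cells, 104 genes for the S34F line became 172 and 227 for the wild-type line became 75 when parental cells were taken as with doxycycline. These counts were 6 to 130 and 14 to 270 when each library was left out. The counts fell by over 1.5 times without S34F dox- (6 and 48), either WT dox+ replicate (35 and 45 without the first, 42 and 62 without the second), WT dox- replicate 1 (54 and 28) or either parental replicate (21 and 14 without the first, 31 and 27 without the second). The replicate numbers do not pair the samples (correlations of replicate deviations of 0.08, -0.01 and -0.05), and the replicate block gave 12 higher and 6 lower, 0 for the interaction, and 82 and 184 against parental cells. Of the list medians, 6 of 144 recomputed values moved by more than their spread between libraries, of the chromosome medians 29 of 230 and of the run medians 13 of 80. Read depth is not given, and the S34F line without doxycycline rests on 1 library.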
